A study of Rattus norvegicus with 18 samples.

Results

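The MCM genes encode the ring that unwinds DNA during replication, and their transcript levels were compared across 6 groups of rats given vehicle or an inhibitor of the cyclin-dependent kinases CDK4 and CDK6. Members were the genes Mcm2, Mcm3, Mcm4, Mcm5, Mcm6, Mcm7 and Mcm10, found as the probe sets whose platform annotation gave 1 gene symbol equal to a member. This rule found 7 genes among 14217 and 8 probe sets among 31099, since Mcm10 had 2 probe sets and each of the other 6 genes had 1. The rule used no measured value. Each gene was read from its probe set with the highest mean, and all 7 stayed in when the dimmest genes were left out.

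The tissue was mucosa scraped from the jejunum of male Sprague Dawley rats aged 6-8 weeks, dosed once a day by gavage. Besides vehicle there were groups named by compound and daily dose in mg/kg, namely palbociclib 30, palbociclib 100, abemaciclib 36, abemaciclib 120 and ribociclib 300. Each group had 3 arrays (replicates A, B and C), 18 in all. Per the design text, 10 rats made up a group and dosing lasted 4 or 15 days, and the labels do not say from which duration an array came. The vehicle arrays and palbociclib shared a methyl cellulose carrier, whereas abemaciclib and ribociclib were given in a citrate buffer with hydroxypropyl methylcellulose and tween. In every comparison of abemaciclib or ribociclib with vehicle or with palbociclib, the carrier and the compound cannot be told apart. Doses also differ between the compounds, so that a comparison between 2 compounds is of the groups as dosed. The title of abemaciclib 120 replicate B names 100 mg/kg while its treatment label names 120, and the label was followed. No label says whether each array came from a separate animal, so every p-value reflects only how these arrays spread, which may be technical.

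Replication starts at origins in steps. The origin recognition complex, with Cdc6 and Cdt1, loads the ring of Mcm2 to Mcm7 onto DNA during G1 in an inactive form, and geminin, encoded by Gmnn, blocks loading once S phase has begun. Kinases and the factors Cdc45 and GINS then turn the ring into the active helicase, and Mcm10, which is not a subunit of the ring despite its name, joins the active helicase and is needed for origins to fire. The genes for these proteins are classic targets of the E2F factors that the retinoblastoma protein restrains, CDK4 and CDK6 relieve that restraint, and in the intestine MCM proteins mark the dividing cells of the crypts.

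Promoter sequence was at hand for 6 of the 7 members in the RefSeq table of rat build GRCr8, which gives 250 bases before and 50 after each start. The 100-base windows printed here show where words of the kinds bound by E2F factors and by NF-Y lie, since the members are known to share such control. Capitals mark 3 words of the E2F type, namely TTCGCGC, then a variant spelled TTGGCGC, then another spelled TTCCCGC. They also mark the NF-Y word, CCAAT, and every word was searched on both strands, so that a word on the opposite strand shows as its reverse complement (ATTGG for CCAAT). The words TTCGCGC and TTGGCGC can overlap on opposite strands, as they do in the windows of Mcm5, Mcm6 and Mcm7.
Mcm2, GRCr8 chr4:122918085-122918184, minus strand: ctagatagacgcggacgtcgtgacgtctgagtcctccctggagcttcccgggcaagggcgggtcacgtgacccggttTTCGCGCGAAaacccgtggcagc
Mcm3, GRCr8 chr9:30733744-30733843, minus strand: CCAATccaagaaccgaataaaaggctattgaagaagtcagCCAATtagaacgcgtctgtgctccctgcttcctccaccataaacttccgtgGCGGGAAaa
Mcm5, GRCr8 chr19:13488601-13488700, plus strand: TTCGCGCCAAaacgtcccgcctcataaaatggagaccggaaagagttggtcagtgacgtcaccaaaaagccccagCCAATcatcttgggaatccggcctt
Mcm6, GRCr8 chr13:42404391-42404490, minus strand: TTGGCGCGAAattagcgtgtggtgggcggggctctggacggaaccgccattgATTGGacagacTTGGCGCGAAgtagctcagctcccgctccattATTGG
Mcm7, GRCr8 chr12:22163219-22163318, minus strand: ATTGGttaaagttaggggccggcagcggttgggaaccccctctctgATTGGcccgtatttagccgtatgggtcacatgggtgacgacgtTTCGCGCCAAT
Mcm10, GRCr8 chr17:78175168-78175267, plus strand: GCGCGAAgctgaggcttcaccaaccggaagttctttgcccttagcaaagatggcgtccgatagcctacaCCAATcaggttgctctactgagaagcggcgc
Over the full 300 bases, TTCGCGC lay in 6 of 6 member promoters and in 1.51% of all 33469 promoters. Any of the 3 E2F-type words lay in 6 of 6 members, in 68.3% of 41 promoters from a list of other replication genes and in 7.52% of all. CCAAT lay in 5 of 6 members, with none in Mcm2, and in 37.5% of all promoters. Mcm6 held the most E2F-type words among the 6 promoters, at 5 counted over both strands, and Mcm10 held 1. A match is a run of letters and not a bound site.

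Epithelial markers were high on every array, and the log2 of their summed signal (Epcam, Cdh1, Vil1 and 8 others) lay between 16.1 and 16.3. On arrays of whole mucosa, fewer cells of a type and less RNA per cell cannot be told apart. The ratio of 3′ to 5′ signal of the actin control probe sets, a sign of RNA degradation, lay between 0.86 and 1.05 (log2) in abemaciclib 120 and between 0.57 and 0.79 in vehicle, with no overlap. The same ratio of the GAPDH control probe sets overlapped, at 0.07 to 0.43 in abemaciclib 120 and 0.08 to 0.11 in vehicle. All signals below are log2 values as deposited, each ± figure is a standard deviation over 3 arrays, and a gene passed when limma's p adjusted over all 14217 genes was below 0.05.

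Across the 6 groups all 7 members varied beyond the spread between arrays. By limma's F test all 7 passed, against 22.6% of all genes, with adjusted p from 5.25e-05 for Mcm2 to 0.0115 for Mcm10. The members split by pattern. For each of Mcm2 to Mcm7, abemaciclib 120 had the highest level with no overlap with the group ranked next, and the arrays of every other pair of neighbouring groups overlapped. Mcm10 ran in another order, from abemaciclib 36 at the top through ribociclib 300, abemaciclib 120, palbociclib 100 and palbociclib 30 down to vehicle. In that order the arrays separated between abemaciclib 120 and palbociclib 100 and between palbociclib 30 and vehicle, and overlapped between the other neighbours.

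**Figure D1:**
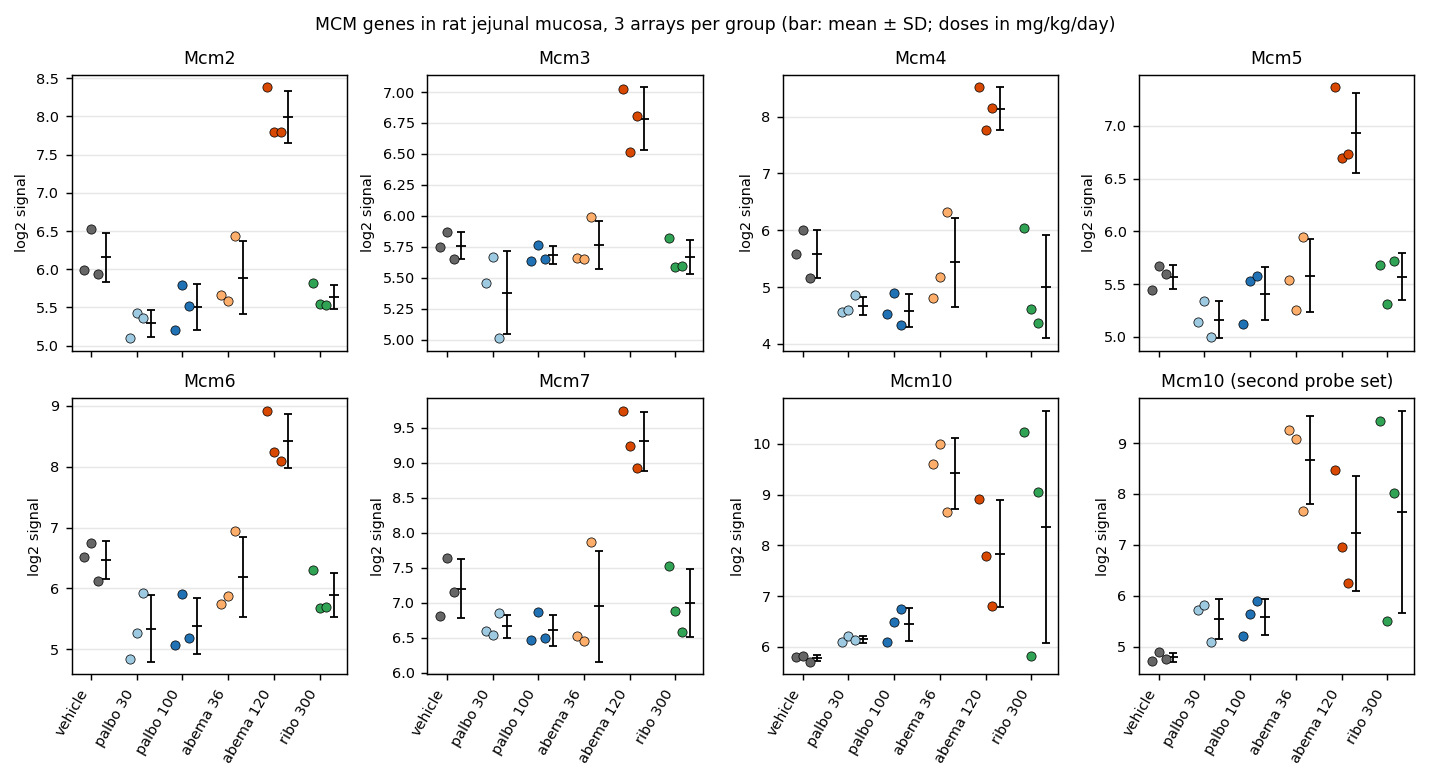
Log2 signal (y axis, a separate scale in each panel) of the 7 MCM genes and of the other Mcm10 probe set in 6 groups of 3 arrays (x axis, doses in mg/kg/day); points are arrays, bars are mean ± SD. In the panels of Mcm2 to Mcm7 the abemaciclib 120 arrays lie above every other array, and in both Mcm10 panels abemaciclib 36 has the highest mean and ribociclib 300 the widest spread.

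In abemaciclib 120 the transcripts of all 6 ring subunits were higher than in vehicle, by 2.04-fold (Mcm3) to 5.91-fold (Mcm4). With Mcm10 at 4.18-fold but not passing, 6 of 7 members were higher, against 9.6% of all genes, and no member was lower. All 7 members lay above vehicle without overlap between the arrays, as did 2641 of 14217 genes. The median log2 difference was 1.95 over the 7 members and -0.02 over all genes. The subunits are taken in the order of their roles, first the pair that forms the gate through which DNA enters the ring.

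Mcm2, whose tail also binds histones, read 8.38, 7.80 and 7.80 in abemaciclib 120 replicates A, B and C, and 6.00, 6.53 and 5.94 in vehicle. Its other arrays read 5.66, 5.58 and 6.44 in abemaciclib 36, then 5.81, 5.55 and 5.54 in ribociclib 300. The lowest abemaciclib 120 array thus lay more than 1 log2 unit above the highest array of any of these groups. Mcm2 rose 3.58-fold over vehicle (log2 1.84, SE 0.25, limma's adjusted p = 0.000164). Mcm5, its partner in the gate, read 7.37, 6.69 and 6.74 in abemaciclib 120 against 5.44, 5.67 and 5.59 in vehicle. Every treated array was above every vehicle array, and the rise was 2.58-fold (log2 1.37, SE 0.21, limma's adjusted p = 0.000442).

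Mcm4, Mcm6 and Mcm7 form the part of the ring that can unwind DNA by itself in the test tube. Mcm4, a main target of the kinase that activates the ring, read 8.52, 7.76 and 8.15 in abemaciclib 120 and 5.58, 6.00 and 5.16 in vehicle. Its rise of 5.91-fold was the largest among the 7 members (log2 2.56, SE 0.41, limma's adjusted p = 0.000497). Its arrays spread widely in ribociclib 300, at 6.05, 4.61 and 4.37, and in abemaciclib 36, at 4.81, 5.17 and 6.32, yet none of these reached the abemaciclib 120 arrays. Mcm6 read 8.92, 8.24 and 8.10 in abemaciclib 120 and 6.52, 6.75 and 6.12 in vehicle. That was a rise of 3.88-fold without overlap (log2 1.95, SE 0.36, limma's adjusted p = 0.00128). Mcm7 read 9.75, 9.24 and 8.92 in abemaciclib 120 and 6.81, 7.64 and 7.16 in vehicle. Here too the groups were apart, and the rise was 4.29-fold (log2 2.10, SE 0.35, limma's adjusted p = 0.000704).

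Mcm3, the subunit that contacts the loading machinery, changed least among the 7. It read 7.03, 6.52 and 6.81 in abemaciclib 120 and 5.75, 5.87 and 5.65 in vehicle, again with no overlap. The rise was 2.04-fold (log2 1.03, SE 0.18, limma's adjusted p = 0.000943). Mcm10 read 8.91, 7.79 and 6.81 against 5.80, 5.82 and 5.71 in vehicle. All 3 treated arrays were above the vehicle arrays but lay far apart, and the difference did not pass (log2 2.06, SE 0.77, limma's adjusted p = 0.0759). Mcm10 did pass with the mean of its 2 probe sets (limma's adjusted p = 0.0465) and when abemaciclib 120 and vehicle were fitted alone (0.0141).

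The rise of the 6 subunits did not rest on 1 array. Leaving out each abemaciclib 120 or vehicle array in turn gave log2 differences from 0.90 (Mcm3) to 2.78 (Mcm4), and in these 6 fits Mcm2 to Mcm7 all passed, the weakest being Mcm6 without abemaciclib 120 replicate A (limma's adjusted p = 0.0109). With the actin ratio as a covariate the same 6 genes passed, with log2 differences from 1.03 (Mcm3) to 2.43 (Mcm4) and limma's adjusted p up to 0.0143 (Mcm6). Without abemaciclib 120 replicate B, whose title names another dose, 6 of 7 members passed.

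Cell type markers moved in the same comparison. Of 10 listed crypt-base stem cell markers, among them Lgr5, Ascl2 and Smoc2, 8 were measured and 8 of 8 were higher in abemaciclib 120, and their summed log2 signal was 10.6 to 11.5 against 8.36 to 8.86 in vehicle. Of 13 villus enterocyte markers 5 were lower, with sums of 16.5 to 16.9 against 17.0 to 17.2. Lower too were 9 of 11 T and NK cell markers (sums 9.29 to 10.1 against 12.4 to 13.0) and 6 of 8 macrophage and dendritic cell markers (8.58 to 9.30 against 10.44 to 11.001). Over all 14217 genes, 1365 were higher and 1195 lower. Among the other lists, 1 of 5 enteroendocrine markers was lower (sums 10.9 to 11.7 against 11.8 to 12.1). Of 6 goblet cell markers 1 was higher and 1 lower, and 1 of 11 epithelial markers was lower. No pancreas marker of 6 passed, with sums of 9.51 to 10.4 against 8.59 to 9.40. The part of these shifts in the MCM result was not tested.

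When abemaciclib 120 was set against abemaciclib 36, ribociclib 300 or palbociclib 100, Mcm2 to Mcm7 passed and Mcm10 did not. Against abemaciclib 36, the same compound in the same carrier at a lower dose, Mcm2 to Mcm7 were higher by log2 1.02 (Mcm3) to 2.71 (Mcm4), so that 6 of 7 members passed, against 4.82% of all genes. Mcm10 went the other way without passing (log2 -1.58, 95% interval -3.21 to 0.04, limma's adjusted p = 0.253). Against ribociclib 300 the 6 subunits were higher by 1.12 (Mcm3) to 3.14 (Mcm4) while 17.2% of all genes were higher, and against palbociclib 100 by 1.10 (Mcm3) to 3.56 (Mcm4) while 11.4% were. In these last comparisons Mcm10 did not pass, at -0.53 (-2.16 to 1.10) and 1.39 (-0.23 to 3.02). Against palbociclib 100 Mcm10 thus ran in the direction of the subunits. All 7 members lay above palbociclib 100 without overlap, as did 2723 of 14217 genes. Against ribociclib 300 the Mcm10 difference rested on single arrays, since it was -1.81 and passed without ribociclib 300 replicate B (limma's adjusted p = 0.0214) and 0.41 without replicate A (0.678). The comparisons share the abemaciclib 120 arrays and are not independent. Fitted on the abemaciclib arrays alone, the dose difference of Mcm3 missed the threshold (limma's adjusted p = 0.0519).

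**Figure D2:**
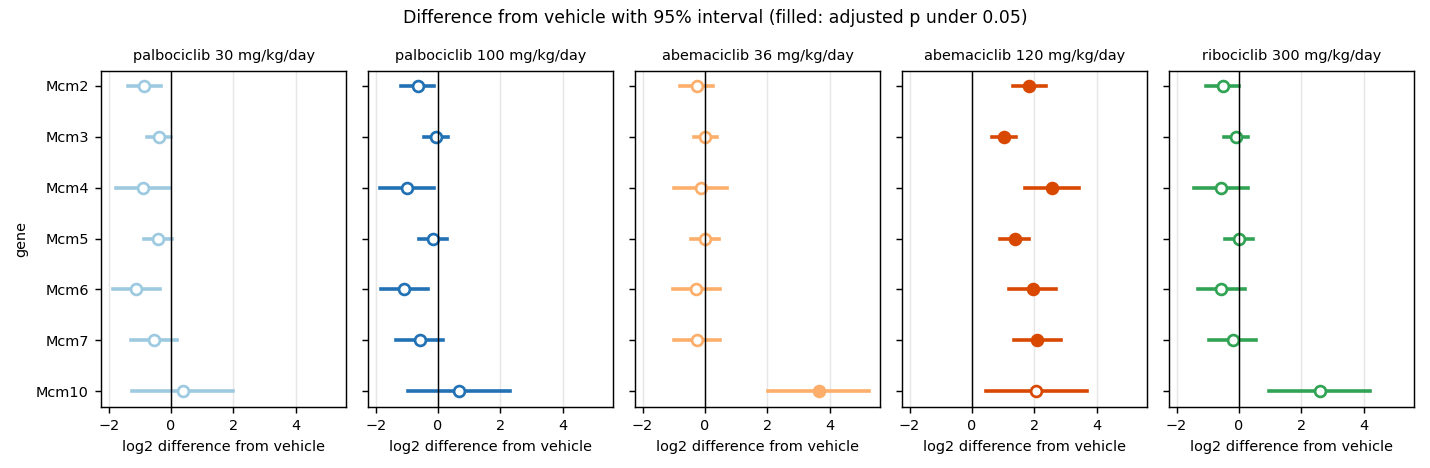
Log2 difference from vehicle (x axis) of each MCM gene (y axis) in the 5 treated groups, with the 95% interval of the limma fit; filled points have an adjusted p under 0.05. Filled points are Mcm2 to Mcm7 in abemaciclib 120 and Mcm10 in abemaciclib 36.

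In abemaciclib 36 Mcm10 was higher than in vehicle, and no ring subunit passed. Mcm10 read 9.61, 10.00 and 8.65 against 5.80, 5.82 and 5.71 in vehicle, so that the lowest treated array lay above the highest vehicle array by almost 3 log2 units. The rise was 12.5-fold, with a 95% interval of 4.05-fold to 38.7-fold (log2 3.65, SE 0.77, limma's adjusted p = 0.0221). It made 1 of 7 members higher, against 0.499% of all genes, and 1130 of 14217 genes lay above vehicle without overlap. The call was lost without abemaciclib 36 replicate A (limma's adjusted p = 0.0983), vehicle A (0.0701), vehicle B (0.0951) or vehicle C (0.0966), and in those fits the log2 difference of Mcm10 stayed between 3.55 and 3.67. Mcm2 to Mcm7 differed from vehicle by -0.28 (Mcm6) to 0.01 (Mcm5), and every 95% interval among them lay between -1.03 (Mcm6) and 0.72 (Mcm4).

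Within abemaciclib 36 the subunits were not even. Replicate C exceeded the vehicle mean in 6 of 6 subunits, by 0.46 on average, while replicates A and B were below it in all 6, by 0.46 on average each. Mcm7, for example, read 6.53, 6.46 and 7.87. The actin ratio was 0.53, 0.62 and 0.80 in replicates A, B and C. Replicate C was at the same time the abemaciclib 36 array with the lowest Mcm10. In this group 5 of 11 T and NK cell markers were lower (sums 11.1 to 11.4), against 225 of 14217 genes. Higher were 1 of 8 crypt-base stem cell markers (sums 9.38 to 10.0) and 1 of 5 enteroendocrine markers (12.2 to 12.6 against 11.8 to 12.1 in vehicle), against 71 genes. No macrophage or dendritic cell marker of 8 passed. Epithelial sums were below vehicle (16.10 to 16.15 against 16.20 to 16.26) and goblet cell sums above it (15.71 to 15.95 against 15.61 to 15.66). The part of these shifts in the Mcm10 result was not tested.

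Mcm10 also separated the ribociclib arrays from each other. In ribociclib 300 it read 10.24, 5.81 and 9.05, so that replicates A and C lay with the abemaciclib 36 arrays and replicate B lay with vehicle. The mean difference from vehicle, log2 2.59 with an SE of 0.77, did not pass (limma's adjusted p = 0.0723). Without replicate B it was 3.87 and passed (limma's adjusted p = 0.00139). Nothing in the labels sets replicate B apart. Its actin ratio of 0.40 was close to the 0.41 of replicate A, and replicate C had 0.90.

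The other probe set of Mcm10 gave the same picture on its own scale. It read 9.26, 9.07 and 7.67 in abemaciclib 36, 8.47, 6.96 and 6.26 in abemaciclib 120, and 9.43, 5.51 and 8.02 in ribociclib 300, against 4.73, 4.89 and 4.75 in vehicle. The lowest array of ribociclib 300 was again replicate B. In the fit over every probe set this one was higher in abemaciclib 36 (log2 3.88, SE 0.73, limma's adjusted p = 0.0180) and in abemaciclib 120 (2.44, SE 0.73, 0.0405), and in ribociclib 300 it missed the threshold (2.86, SE 0.73, 0.0541). The 2 probe sets correlated at r = 0.986 over the 18 arrays, which they share.

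**Figure D3:**
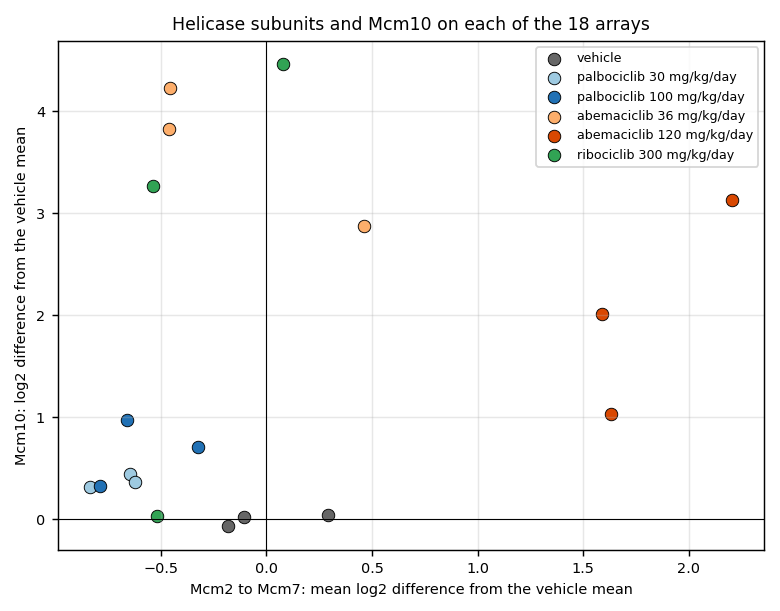
Each point is 1 of the 18 arrays, with the mean log2 difference of Mcm2 to Mcm7 from the vehicle mean on the x axis and that of Mcm10 on the y axis, coloured by group. The abemaciclib 120 arrays lie to the right, between 1.59 and 2.21, and the abemaciclib 36 arrays and 2 of the 3 ribociclib 300 arrays lie between 2.88 and 4.47 on the y axis with x values up to 0.46.

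The subunits in ribociclib 300 stayed near or below vehicle. No member passed, against 3.73% of all genes in either direction, and at an unadjusted p under 0.05 limma named 1 of 7 members, Mcm10, against 20.2% of all genes. The log2 differences of Mcm2 to Mcm7 ran from -0.57 (Mcm4 and Mcm6) to 0.00 (Mcm5), with Mcm3 at 0.09 after median centring and Mcm7 at 0.02 after quantile normalization, and the widest interval was that of Mcm4, from -1.43 to 0.29. Mcm2 read 5.81, 5.55 and 5.54, all below the lowest vehicle array, with a difference of -0.52 (limma's adjusted p = 0.251). It was the 1 member of 7 below vehicle without overlap, as were 1994 of 14217 genes, a share near that of the members. Mcm5 read 5.68, 5.31 and 5.72, which straddled its vehicle arrays. In this group 4 of 11 T and NK cell markers were lower, against 389 of 14217 genes, and 0 of 8 crypt-base stem cell markers passed. Lower too were 1 of 8 macrophage and dendritic cell markers and 1 of 11 epithelial markers. Higher was 1 of 5 enteroendocrine markers, against 142 genes.

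Under palbociclib the mean of each subunit was below vehicle at both doses without passing the test, except that Mcm3 at the higher dose, -0.07, read 0.04 after median centring. Mcm6 read 4.84, 5.26 and 5.92 at 30 mg/kg/day and 5.06, 5.92 and 5.18 at 100 mg/kg/day, all below the lowest vehicle array of 6.12. Mcm4 read 4.57, 4.60 and 4.86, then 4.52, 4.90 and 4.33, again all below the lowest vehicle array of 5.16. Mcm2 read 5.10, 5.43 and 5.36, then 5.20, 5.80 and 5.51, below the lowest vehicle array of 5.94. These 3 genes thus lay below vehicle on 6 of 6 palbociclib arrays, as did 2.24% of all genes, and over both doses their fitted levels were 0.466 (Mcm6), 0.517 (Mcm4) and 0.592 (Mcm2) of vehicle.

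At 30 mg/kg/day the log2 difference from vehicle was -1.12 for Mcm6 (95% interval -1.88 to -0.37), -0.91 for Mcm4 (-1.77 to -0.05) and -0.86 for Mcm2 (-1.39 to -0.34), all at limma's adjusted p = 0.998. No gene of the 14217 passed (0%). At an unadjusted p under 0.05 limma named 4 of 7 members, Mcm2, Mcm3, Mcm4 and Mcm6, against 2.51% of all genes. Without overlap with vehicle, 4 members were lower (Mcm2, Mcm4, Mcm5 and Mcm6), against 6.39% of all genes, and Mcm10 was higher, against 4.82%. At 100 mg/kg/day again no gene passed (0%). Limma named 3 of 7 members at an unadjusted p under 0.05, Mcm2, Mcm4 and Mcm6, against 7.2% of all genes. The same 3 lay below vehicle without overlap, against 11.5% of genes lower, and Mcm10 lay above it, against 7.46% higher.

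With both doses pooled the log2 differences were -1.10 for Mcm6, -0.95 for Mcm4 and -0.76 for Mcm2, and no gene passed (0%), with limma's adjusted p = 0.906 for these 3. Unadjusted, 3 of 7 members were under 0.05, against 4.97% of all genes. This comparison was added after the data had been seen. Mcm10 ran the other way on a small scale. It read 6.09, 6.22 and 6.14 at the lower dose and 6.11, 6.48 and 6.75 at the higher, above the highest vehicle array of 5.82 on 6 of 6 arrays, as were 1.41% of all genes, with a difference of 0.52 over both doses (limma's adjusted p = 0.935).

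No marker of any cell type list passed at either palbociclib dose, but some sums left the vehicle range. In palbociclib 30 the sums of crypt-base stem cell markers were 8.07 to 8.27 against 8.36 to 8.86 in vehicle, those of epithelial markers 16.10 to 16.19 against 16.20 to 16.26, and those of fibroblast markers 7.83 to 8.69 against 8.94 to 9.99. In palbociclib 100 the sums of T and NK cell markers were 10.8 to 11.9 against 12.4 to 13.0, and those of goblet cell markers 15.3 to 15.5 against 15.6 to 15.7. Smooth muscle sums were above vehicle, at 9.12 to 9.39 against 8.71 to 8.97. The part of these shifts in the MCM values was not tested.

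Between the palbociclib doses the members did not separate. No gene passed (0%), and no member had an unadjusted p under 0.05 by limma, against 619 of 14217 genes. The differences of 100 from 30 mg/kg/day ran from -0.09 (Mcm4) to 0.31 (Mcm3), with intervals for Mcm4 from -0.95 to 0.77. Between ribociclib 300 and palbociclib 100 no member passed, against 0.823% of all genes. By limma 1 of 7 had an unadjusted p under 0.05, Mcm10 (log2 1.92, limma's adjusted p = 0.246). So did 2100 of 14217 genes, a share near that of the members. The Mcm10 difference was 3.20 and passed without ribociclib 300 replicate B (limma's adjusted p = 0.00601).

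The dose difference of abemaciclib was larger than that of palbociclib for part of the ring. This test of the difference between dose differences, added after the data had been seen, passed for Mcm2 (log2 1.89, SE 0.35, limma's adjusted p = 0.0378), Mcm4 (2.80, SE 0.57, 0.0485) and Mcm7 (2.41, SE 0.50, 0.0485). That was 3 of 7 members, against 0.225% of all genes higher. All 3 calls were lost with the actin ratio as a covariate (limma's adjusted p from 0.136 for Mcm2 to 0.158 for Mcm7), with the replicate letter as a block (0.0595 for Mcm2 to 0.0757 for Mcm4 and Mcm7), with dim genes left out and with every probe set. Mcm6 (2.19, limma's adjusted p = 0.0639), Mcm5 (1.11, 0.119) and Mcm3 (0.71, 0.229) did not pass, and neither did Mcm10 (-1.88, 0.497). The doses of the compounds differ, with abemaciclib at 36 and 120 and palbociclib at 30 and 100. Of the 12 arrays in the test, leaving out 1 at a time ended every call without any of the 3 palbociclib 30 or 3 palbociclib 100 arrays, abemaciclib 36 replicate A or B, or abemaciclib 120 replicate A, and left 5 calls without abemaciclib 36 replicate C.

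The subunits moved together from array to array. Over the 18 arrays the 15 pairs among Mcm2 to Mcm7 correlated at r = 0.884 to 0.977, with a median of 0.958. Without the 3 abemaciclib 120 arrays, r over 15 arrays ran from 0.475 to 0.917, with a median of 0.760. Between arrays of the same group, taken as deviations from the group means, it ran from 0.314 to 0.873, with a median of 0.705. Mcm10 went with none of the 6 closely, at r = 0.186 to 0.310. These values are descriptions, and all points share the array, its RNA quality and its mix of cells.

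On single arrays the mean of the 6 subunits lay 2.21, 1.59 and 1.63 above the vehicle mean in abemaciclib 120. It lay at 0.08, -0.52 and -0.54 in ribociclib 300 and between -0.84 and -0.33 on the 6 palbociclib arrays. Vehicle replicate B stood 0.29 above the mean of its own group, with all 6 subunits on the high side. Abemaciclib 120 replicate A was the highest of its group in all 6 subunits and in Mcm10. The array with the highest subunit mean also had the highest actin ratio in vehicle (B, 0.79), palbociclib 30 (C, 0.77) and palbociclib 100 (B, 0.76). So it was in abemaciclib 36 (C, 0.80) and abemaciclib 120 (A, 1.05). Ribociclib 300 went the other way, with 0.41 in A, the highest by subunit mean, and 0.90 in C, the lowest. The part of RNA quality in this spread within groups was not tested.

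Genes with the pattern most like the mean of Mcm2 to Mcm7 over the 18 arrays were H2ax (r = 0.982), Polr1e (0.977), Hirip3 (0.975), Kif22 (0.975), Ruvbl1 (0.975) and Uhrf1 (0.975). H2ax encodes a histone variant that is phosphorylated at DNA breaks, Uhrf1 carries DNA methylation through replication, and Kif22 is a kinesin of the mitotic spindle. Their log2 differences from vehicle in abemaciclib 120, which the choice by likeness on the same arrays largely sets, ran from 1.38 (H2ax) to 2.93 (Kif22). By deviations from group means the closest were Nop56 (0.983), Kif22 (0.957), Dnaaf10 (0.951), Prmt5 (0.946), Ruvbl1 (0.945) and Sinhcaf (0.944). Kif22 and Ruvbl1 are in both lists of 6.

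Genes most like Mcm10, by the same measure applied after the data had been seen, were others. They were Polg2 (r = 0.952), which encodes the accessory subunit of the mitochondrial DNA polymerase, Dnai7 (0.939), Mtfr2 (0.902), Egr1 (0.890), an immediate early transcription factor, Cstf3 (0.890) and Mss51 (0.875). Being high where Mcm10 is high was set by this choice, so their differences from vehicle are a description. In abemaciclib 36 the log2 difference was 3.55 for Mtfr2, 2.98 for Egr1, 2.50 for Dnai7 and 1.48 for Polg2. There Mss51 (1.80) and Cstf3 (0.71) did not pass. In ribociclib 300 the log2 difference was 2.42 for Egr1, 2.09 for Dnai7 and 1.29 for Polg2. Mtfr2 (1.41), Cstf3 (0.57) and Mss51 (0.56) did not pass in ribociclib 300.

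Other genes of DNA replication were read from a list of 52, of which 45 were measured, not counting the 7 members. In abemaciclib 120, 27 of 45 were higher than vehicle, against 9.6% of all genes, and 2 were lower, with a median log2 difference of 0.74 against -0.02 for all genes. The count of higher genes was 14 without abemaciclib 120 replicate A, 15 without vehicle A and 15 without vehicle C. In abemaciclib 36, 1 of 45 passed (Orc1, higher), against 2.08% of all genes in either direction. In ribociclib 300, 2 of 45 passed (Orc4 and Topbp1, lower), against 3.73%, and at either palbociclib dose 0 of 45 passed, against 0%. These shares lie near those of all genes. The 1 call in abemaciclib 36 was lost without abemaciclib 36 replicate A or any vehicle array. The median log2 differences of the 45 genes were -0.13 in abemaciclib 36, -0.21 in ribociclib 300, -0.19 in palbociclib 100 and -0.20 in palbociclib 30. In the same order the medians of all genes were 0.008, 0.001, 0.004 and -0.026. After median centring the medians of the 45 genes were -0.06, -0.04, -0.07 and -0.06, and those of all genes 0.08, 0.18, 0.12 and 0.12.

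**Figure D4:**
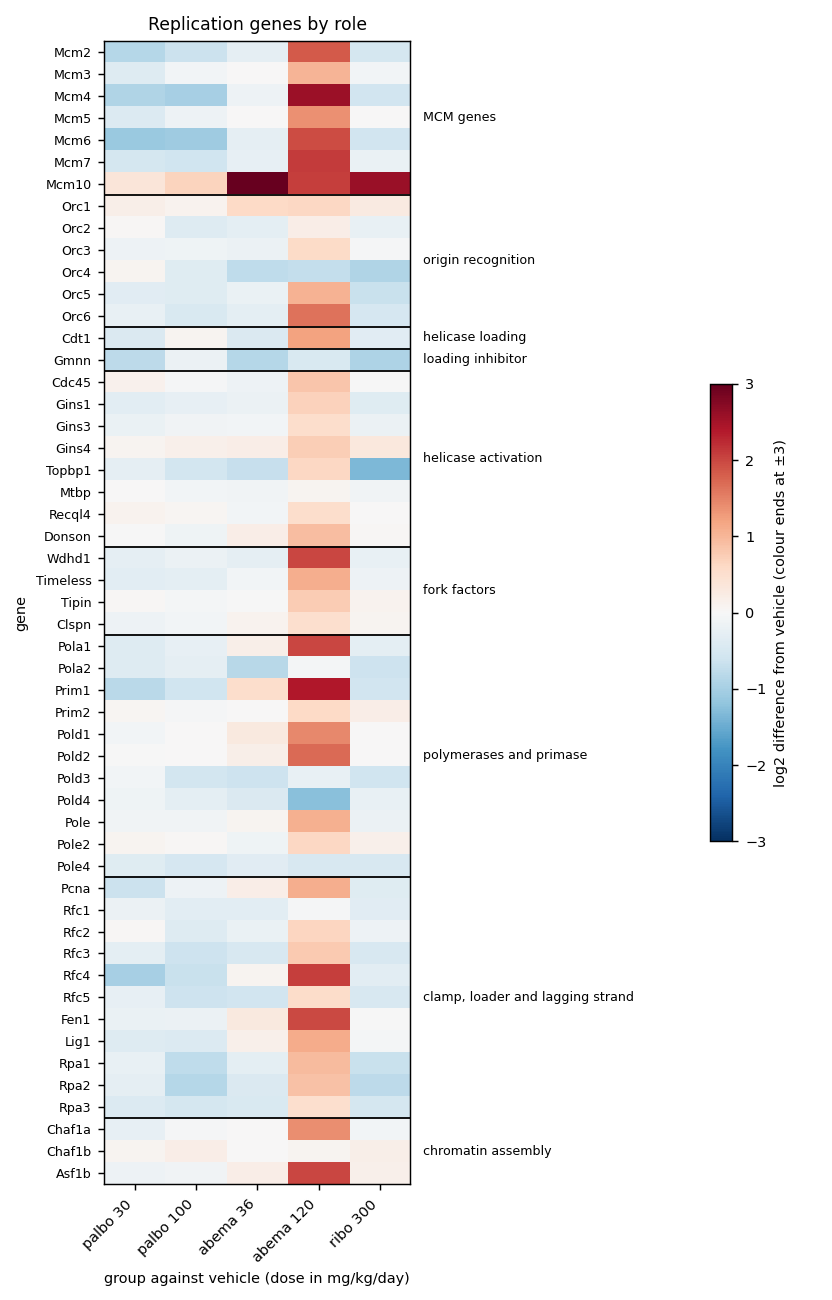
Log2 difference from vehicle (colour, red higher and blue lower, ending at 3 in both directions) of the 7 MCM genes and 45 other replication genes (y axis, grouped by role) in the 5 treated groups (x axis). The abemaciclib 120 column is the one in which most rows are red, with Orc4 and Pold4, the 2 that passed as lower there, among the blue rows, and Mcm10 is red in abemaciclib 36 and ribociclib 300 too.

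By role, genes of the loading step come first. Of 6 origin recognition genes 3 were higher in abemaciclib 120, and Orc1 was higher at both abemaciclib doses (log2 0.63 and 0.61, SE 0.13 each, limma's adjusted p = 0.00318 and 0.0236). Orc1 signal was low, with means of 3.66 in vehicle, 4.29 in abemaciclib 120 and 4.27 in abemaciclib 36. Array medians ran from 5.41 to 5.51 over all probe sets. Orc4 was lower in abemaciclib 120 (-0.71, SE 0.20, limma's adjusted p = 0.0187) and in ribociclib 300 (-0.90, SE 0.20, 0.0203). Cdt1, which brings the ring to the origin, differed from vehicle by 1.20 in abemaciclib 120 and missed the threshold (SE 0.42, limma's adjusted p = 0.0579), while against abemaciclib 36 it was higher by 1.64 (SE 0.42, 0.0246). Gmnn, its inhibitor, read below vehicle in all 5 treated groups, by -0.19 to -0.92, and passed in none. Cdc6, Cdc7, Dbf4, Gins2, Ticrr, Pole3 and Dna2 were not analysed here.

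Of 8 measured genes that switch the loaded ring on, 5 were higher in abemaciclib 120, among them Cdc45 (log2 0.82, SE 0.21, limma's adjusted p = 0.0124) and Gins1 (0.70, SE 0.21, 0.0319), whose products join the ring to make the active helicase. Topbp1, a scaffold for that step, was lower in ribociclib 300 (-1.36, SE 0.29, limma's adjusted p = 0.0191). In abemaciclib 120 all 4 fork factors were higher than in vehicle. Wdhd1, which ties the helicase to the primase, was at 1.99 (SE 0.35, limma's adjusted p = 0.000913) and Timeless, which steadies paused forks, at 1.09 (SE 0.14, 0.000121).

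Downstream of the helicase, 7 of 11 polymerase and primase genes were higher in abemaciclib 120, with Pola1 at log2 1.998 (SE 0.29, limma's adjusted p = 0.00028) and Pold2 at 1.69 (SE 0.26, 0.000439). Pold4, the small subunit of polymerase delta, was lower (-1.25, limma's adjusted p = 0.000751), and it was the single gene of the list that was lower in abemaciclib 120 than in abemaciclib 36 (-0.83, 0.0244). Of 11 clamp, loader and lagging-strand genes 6 were higher in abemaciclib 120 than in vehicle, including Fen1 (1.98, SE 0.29, limma's adjusted p = 0.000278) and Rpa1 (0.95, SE 0.27, 0.0236). Pcna, the sliding clamp and a common proliferation marker, did not pass (1.10, SE 0.42, limma's adjusted p = 0.0804). Of 3 chromatin assembly genes 2 were higher, Asf1b (1.99) and Chaf1a (1.40).

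Relatives of the ring genes did not share the pattern as a group. Mcm8, which with Mcm9 forms a separate helicase used in recombination, was higher in abemaciclib 120 by log2 0.64 (SE 0.14, limma's adjusted p = 0.00385), and Mcm9 differed by -0.03 and did not pass. Mcm8 signal was low, with means of 3.67 in vehicle and 4.31 in abemaciclib 120. Mcmbp, a protein that binds the ring subunits, read below vehicle in all 5 treated groups, by -0.37 to -0.70, and passed in none. Mcm3ap, whose product acts on Mcm3 and in mRNA export, differed by -0.08 to -0.33 and did not pass either. Mki67, the Ki-67 marker of cycling cells, differed from vehicle by 1.74 in abemaciclib 120 without passing (SE 0.64, limma's adjusted p = 0.0712), and was higher than in abemaciclib 36 by 2.22 (0.0424).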

How the data were processed

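RNA from jejunal mucosa was measured on 18 Affymetrix rat arrays, 3 in each of 6 groups. The deposited values are log2 probe set signals, made by the authors with RMA in Affymetrix Expression Console and Transcriptome Analysis Console per the submitters' processing notes, with versions not given in the sources used here. RMA quantile-normalizes the arrays together, which can compress changes shared by most genes. Of 31099 probe sets, 20826 carried 1 gene symbol, 436 several and 9780 none, 57 being controls. A gene with several probe sets was read from the one with the highest mean, which left 14217 genes.

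All genes were fitted with limma 3.58.1 in R 4.3.3 (a mean per group, empirical Bayes with an intensity trend, 12 residual degrees of freedom), and p-values were adjusted by Benjamini-Hochberg over all genes, with a threshold of 0.05. There were 10 comparisons between groups, an F test and 2 comparisons added after the data had been seen. Simulated arrays with known changes were used to check the fitting script. Tables and plots used Python 3.11.15, pandas 2.3.3, numpy 2.4.6 and matplotlib 3.10.9. Alternatives were the scaling, the filter on dim genes (below the percentile 30), the probe set rule, the trend, a fold of at least 1.5, the groups fitted, the replicate letter as a block, the actin ratio as a covariate and each array left out. The number of arrays limits the precision.

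The members, the gene and marker lists and the motif words were chosen with earlier results of these data known. Named genes were the members, Mcm8, Mcm9, Mcmbp, Mcm3ap and Mki67, set genes of loading and activation, the 2 genes of each replication role with the smallest F test p, and the 6 genes most like the mean of Mcm2 to Mcm7 by each measure. Pold4 and the genes most like Mcm10 fall outside this rule and were named after the data had been seen.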

Additional observations from a re-analysis of the deposited data

Results flagged for a closer look

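The difference between the compounds' dose differences, (abemaciclib 120 minus 36) minus (palbociclib 100 minus 30), passed for 3 ring subunits in a test of that difference itself. It was 1.89 on the log2 scale for Mcm2, 2.80 for Mcm4 and 2.41 for Mcm7, with limma's adjusted p = 0.0378, 0.0485 and 0.0485. All lie close to the threshold, and none passed with the actin ratio as a covariate or with the replicate letter as a block. No sample stood apart by the rule for groups of at least 4 arrays, since each group holds 3.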

How the results depend on the processing

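Of 756 log2 differences of members recomputed under alternatives other than leaving out an array, 752 kept their direction, and the 4 that did not had not passed. Many of the 756 could not change. The dim gene filter, the fit over every probe set, the trend, the groups fitted and the replicate block leave a log2 difference as it was. Only the scaling, the actin covariate and, for Mcm10, the mean of its probe sets could move it. Median centring shifted the median of all genes by -0.11 for abemaciclib 120 against vehicle, 0.18 for ribociclib 300, 0.11 for palbociclib 100, 0.14 for palbociclib 30, -0.18 for abemaciclib 120 against 36, -0.28 against ribociclib 300 and -0.22 against palbociclib 100. The count of 3 members for the difference between dose differences became 0 with dim genes left out, 0 with every probe set, 1 with no intensity trend, 1 with only the groups compared, 0 with the replicate block and 0 with the actin ratio as a covariate. It ran from 0 to 5 with each array left out. The cause was not tested. Leaving out an array moved the count between 0 and 1 for abemaciclib 36 against vehicle, between 0 and 1 for ribociclib 300 against vehicle, between 0 and 1 for ribociclib 300 against palbociclib 100, and between 6 and 7 for abemaciclib 120 against ribociclib 300, where Mcm10 was lower without ribociclib 300 replicate B. Same-letter arrays correlated from -0.31 to 0.59 in their deviations from group means, 19 of 45 pairs were over 0.1, and 12 of 18 arrays correlated best with their own letter, a hint from the data of a shared letter effect. The letters were not taken as pairing because no label ties them to a shared source and not every same-letter correlation was over 0.1. Apart from the difference between dose differences, the replicate block changed no count of members. With it 6 of 7 were called for abemaciclib 120 against vehicle, against 2717 of 14217 genes in either direction.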
